A study of Mus musculus with 20 samples.

Results

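The report covers the gene pair Tmem176a and Tmem176b and the 8 Gimap genes that lie beside it on mouse chromosome 6, which are 10 of the 17101 genes measured. Tmem176a and Tmem176b were selected on their rise in KO cells in these same libraries, and Gimap1, Gimap3, Gimap4, Gimap5, Gimap6, Gimap7, Gimap8 and Gimap9 were chosen by position. The KO against WT difference of the pair is therefore given as a description with no test, while the Gimap genes were tested. Donor T cells that lacked Dnmt3a through a Cre driven by the Cd4 promoter, or WT littermate cells, had been given to irradiated B6D2F1 recipients, and were sorted from the spleen on day 10. Donors were 6 to 12 weeks and recipients 8 to 12 weeks old. The 5 groups were KO CD4, WT CD4, KO CD8, WT CD8 and KO cells positive for both CD4 and CD8 (DP), with 4 libraries each. KO libraries carried the numbers 1 to 4 and WT libraries the numbers 2, 3, 5 and 6.

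Tmem176a and Tmem176b encode membrane proteins related to the MS4A family, which act as cation channels of intracellular vesicles and are made by myeloid cells, dendritic cells and some lymphocytes. The Gimap genes encode GTPases of the immune system that are abundant in T cells and have been tied to the survival of lymphocytes. Dnmt3a adds methyl groups to cytosines that precede a guanine, so the CG content of promoters is given as well.

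Reads on genes ranged from 39805175 to 46604070 in KO CD4 libraries (median 45372745) and from 37547651 to 44963524 in WT CD4 libraries (median 43859644). They ranged from 39307777 to 45420708 in KO CD8 libraries (median 42606280), from 42563528 to 46771383 in WT CD8 libraries (median 45174912.5) and from 41439155 to 46966318 in KO DP libraries (median 43134804.5). Every member had at least 54 reads in every library, so depth did not limit their detection.

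Dnmt3a, the deleted gene, served to check the labels. Its normalized counts were 1658, 1628, 1639.6 and 1385 in KO CD4 libraries against 4906, 4690.0, 4839 and 5171 in WT CD4 libraries. In CD8 libraries they were 2007, 1287, 1515 and 1664 in KO against 3549, 3542, 3756 and 3812 in WT, and in KO DP libraries 1571, 1021, 650.4 and 1332. All 12 KO libraries were below the 8 WT libraries. KO DP number 3 stood apart, with 11783 genes with reads against 13203 to 14677 in the other 19 libraries. KO CD4 number 1 had a Cd8a count of 3771 and a Cd8b1 count of 4515, against at most 227 and 788 in the other KO CD4 libraries. Values without these libraries are given where they change the call of a member.

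Tmem176a had normalized counts of 1988, 586, 729 and 1526 in KO CD4 libraries 1 to 4. In WT CD4 libraries 2, 3, 5 and 6 it had 441, 490 and 528 and, lowest, 254. Every KO library lay above every WT library, KO number 2 being nearest, and the KO libraries were spread more widely. The means were 1207 (SD 665) and 428 (SD 122), a difference of 1.37 on the log2 scale (SE 0.38). In CD8 cells Tmem176a had 494, 215, 340 and 508 counts in KO libraries against 66.3, 77.7, 59.3 and 85.3 in WT libraries. The groups did not overlap, and the means of 389 (SD 139) and 72.2 (SD 11.6) differed by 2.35 on the log2 scale (SE 0.29). In KO DP libraries Tmem176a had 603, 182, 282 and 555 counts, a mean of 406 (SD 205).

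Tmem176b had 2800.1, 852, 1299 and 2504 counts in KO CD4 libraries and 514, 604, 731 and 444 in WT CD4 libraries. Here too no KO library fell into the WT range, and the log2 difference was 1.57 (SE 0.34). In CD8 cells the counts were 562, 219, 301 and 871 in KO and 96.8, 93.1, 48.5 and 59.3 in WT libraries, again with no overlap and with a log2 difference of 2.55 (SE 0.43). In KO DP libraries Tmem176b had 816, 251, 627 and 895 counts. With any 1 library left out, the log2 difference stayed between 1.07 and 1.66 (Tmem176a) and between 1.32 and 1.89 (Tmem176b) in CD4 cells. The same ranges in CD8 cells were 2.19 to 2.61 and 2.21 to 2.87. Among all genes tested, 18.4% were called between KO and WT CD4 cells and 25.2% between KO and WT CD8 cells; the pair was chosen by this contrast, so nothing is read from its place among them.

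**Figure D1:**
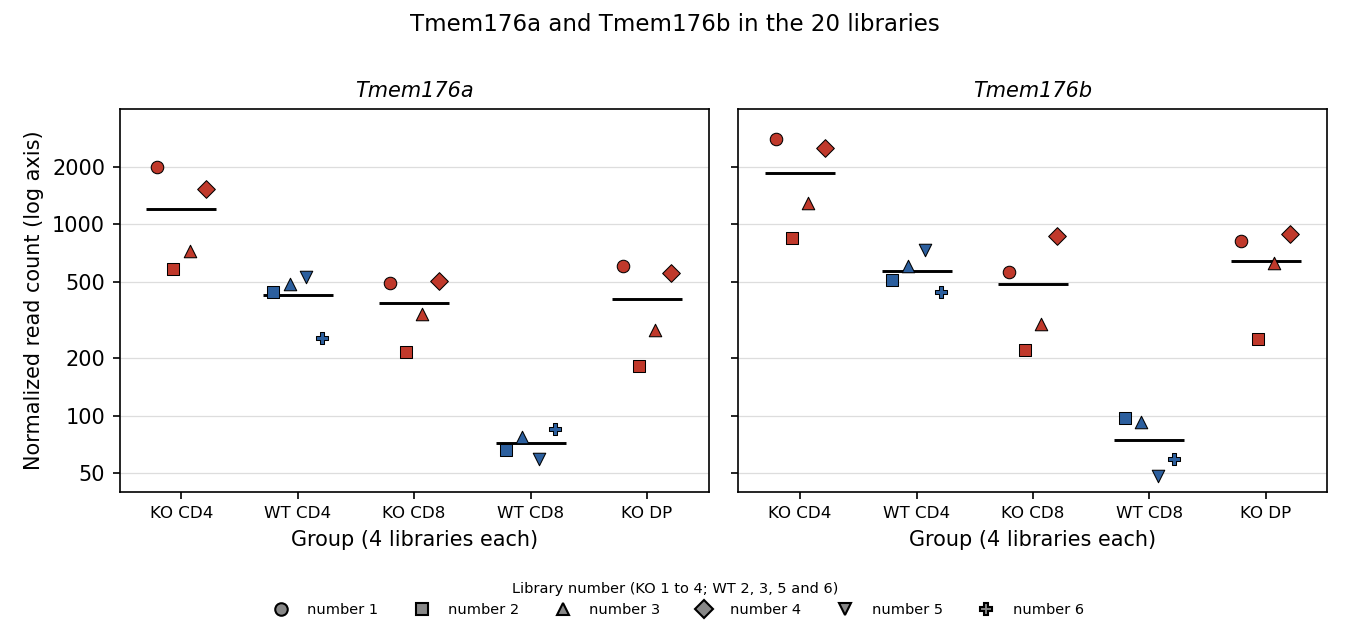
Normalized read counts of Tmem176a and Tmem176b (vertical log axis) in the 4 libraries of each of 5 groups (horizontal axis), with marker shape for the library number and a line for the group mean. KO libraries lie above the WT libraries of the same subset, and KO numbers 1 and 4 lie above number 2 in each KO group.

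The KO libraries kept an order across the subsets. Number 2 was the lowest of its group for both genes in CD4, CD8 and DP cells, and numbers 1 and 4 were the highest pair. The level in KO CD8 libraries (215 to 508 for Tmem176a) overlapped with that of WT CD4 libraries (254 to 528). The KO minus WT difference was smaller in CD4 than in CD8 cells, by 0.98 on the log2 scale for Tmem176a and 0.99 for Tmem176b, a difference of differences that is described and was not tested. Per kilobase of exon, the means of Tmem176a and Tmem176b were 1079 and 910 in KO CD4, 383 and 280 in WT CD4, 348 and 238 in KO CD8, 64.5 and 36.3 in WT CD8, and 362 and 316 in KO DP libraries. The ratio of Tmem176b to Tmem176a per kilobase ranged from 0.769 to 0.973 in KO CD4 and from 0.636 to 0.956 in WT CD4 libraries, so the groups overlapped. It ranged from 0.483 to 0.937 in KO CD8 and from 0.380 to 0.798 in WT CD8 libraries, and was highest, at 1.21, in KO DP number 3.

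The contrast of WT CD4 with WT CD8 cells used no KO library and was tested for all 10 members. For Tmem176a and Tmem176b the WT values had been the baseline of the selection, so their p-values here are not free of it. Tmem176a had 254 to 528 counts in WT CD4 libraries against 59.3 to 85.3 in their CD8 counterparts, and all 4 CD4 libraries lay above all 4 CD8 libraries. The difference was 2.51 on the log2 scale (SE 0.22, limma with Benjamini-Hochberg adjustment, adjusted p 1.09e-06), and that of Tmem176b was 2.96 (SE 0.23, adjusted p 3.16e-07), again in 4 of 4 libraries. Over the alternatives the adjusted p of Tmem176a lay between 3.07e-28 and 0.000324 and that of Tmem176b between 1.36e-39 and 0.000161. With the Gimap genes, 5 of the 10 members were called in this contrast, where 44.5% of all genes tested were, so the count was near the share of all genes. In the joint fit of all 20 libraries only Tmem176a and Tmem176b of the 10 were called, where 12.8% of all genes were.

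In KO cells the same contrast was less clear-cut in the fit that did not pair the libraries of an animal. Tmem176a ranged from 586 to 1988 counts in KO CD4 and from 215 to 508 in KO CD8 libraries, with no overlap, and Tmem176b from 852 to 2800.1 against 219 to 871, where KO CD8 number 4 reached above KO CD4 number 2. The log2 differences of 1.53 (SE 0.42) and 1.97 (SE 0.48) were not called by limma with Benjamini-Hochberg adjustment, at an adjusted p of 0.0798 and 0.0521. None of the 10 members was called by limma (0 of 10, with 3 at an unadjusted p under 0.05, 0 by edgeR and 2 by DESeq2), where 4.22% of all genes tested were. DESeq2 called 7.84% of all genes tested. With the animal number as a block, which pairs CD4 and CD8 libraries of the same KO animal, 4 members were called, where 18.9% of all genes tested were at that setting. These were Tmem176a (adjusted p 0.00017), Tmem176b (adjusted p 3.20e-05) and Gimap3 (log2 difference 0.35, adjusted p 0.0225), all higher in CD4 cells, and Gimap7, lower in CD4 cells (log2 difference -0.29, adjusted p 0.00822). Each of these 4 genes had its direction in 4 of 4 animals. Without KO CD4 number 2, Tmem176a (adjusted p 0.0416) and Tmem176b (0.0332) passed without a block, and Tmem176b also passed without KO CD8 number 4 (0.0349).

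KO DP cells had Tmem176a and Tmem176b levels closer to KO CD8 than to KO CD4 cells. Against KO CD8 cells the log2 differences were -0.02 (SE 0.43, limma adjusted p 0.992) and 0.46 (SE 0.50, adjusted p 0.881), and the groups overlapped. That of Tmem176b ranged from 0.14 to 0.86 with 1 library left out. In each animal Tmem176b and Gimap7 were higher and Gimap8 lower in KO DP than in KO CD8 cells, while the other members went both ways. With the animal number as a block 0 of 10 members were called, where 0.008% of all genes tested were. None of the 10 members was called by limma in this contrast (0 of 10, 0 at an unadjusted p under 0.05, 0 by edgeR and 0 by DESeq2), where 0.00823% of all genes tested were, so the contrast separated next to no genes. Against KO CD4 cells the log2 differences were -1.56 (SE 0.48, adjusted p 0.147) and -1.52 (SE 0.47, adjusted p 0.149), with overlap in both genes, since KO DP number 1 had more Tmem176a (603) and KO DP number 4 more Tmem176b (895) than KO CD4 number 2 (586 and 852). limma called 0 of 10 members (3 at an unadjusted p under 0.05, 0 by edgeR and 2 by DESeq2), where 1.95% of all genes tested were called. DESeq2 called 5.98% of all genes tested. With the animal number as a block, Tmem176a (adjusted p 0.00299) and Tmem176b (0.00434) were called, where 7.06% of all genes tested were at that setting, and both fell in 4 of 4 animals. Without KO DP number 3 the count of members called stayed at 0 in both contrasts.

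The Gimap genes were far more abundant than the pair. Over the 20 libraries, mean normalized counts per kilobase of exon were 29862 for Gimap4, 17849 for Gimap6, 15502 for Gimap3, 11683 for Gimap7, 10536 for Gimap1, 3972 for Gimap5, 3533 for Gimap9 and 3356 for Gimap8, against 447 for Tmem176a and 356 for Tmem176b. Together the 8 Gimap genes took 0.337% to 0.452% of the reads on genes. The share was 0.359% to 0.437% in KO CD4, 0.396% to 0.440% in WT CD4, 0.355% to 0.452% in KO CD8 and 0.398% to 0.412% in WT CD8 libraries, so KO and WT overlapped in both subsets. The highest library exceeded the lowest by 1.41-fold (Gimap4) to 2.69-fold (Gimap7), compared with 33.5-fold for Tmem176a and 57.7-fold for Tmem176b.

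Gimap8, which encodes the largest protein of the family, had 9542, 9664, 12105 and 10002 counts in KO CD4 libraries and 14724, 14237, 14874 and 18252 in WT CD4 libraries. In CD8 cells it had 12525, 10451, 10899 and 9980.3 counts in KO against 16164, 15346, 14782 and 16064 in WT libraries. All KO libraries lay below all WT libraries in both subsets. The log2 difference by limma with Benjamini-Hochberg adjustment was -0.59 (SE 0.10, adjusted p 0.00751) for CD4 and -0.51 (SE 0.08, adjusted p 0.00329) for CD8 cells, with 4 of 4 KO libraries lower in each. Gimap9, a shorter gene next to it, moved the other way. It had 5615, 5080.4, 5099 and 5508 counts in KO CD4 against 4182, 4149, 4034 and 4065 in WT CD4 libraries. In CD8 cells it had 5991, 5537, 4882 and 5106 in KO against 4108, 3964, 3884 and 4027 in WT libraries. Every KO library lay above every WT library, with log2 differences by limma of 0.37 (SE 0.07, adjusted p 0.00729) for CD4 and 0.42 (SE 0.07, adjusted p 0.00507) for CD8 cells. The ratio of Gimap9 to Gimap8 in a library, which does not depend on the scaling, ranged from 0.421 to 0.713 in the 12 KO libraries and from 0.223 to 0.291 in the 8 WT libraries.

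**Figure D2:**
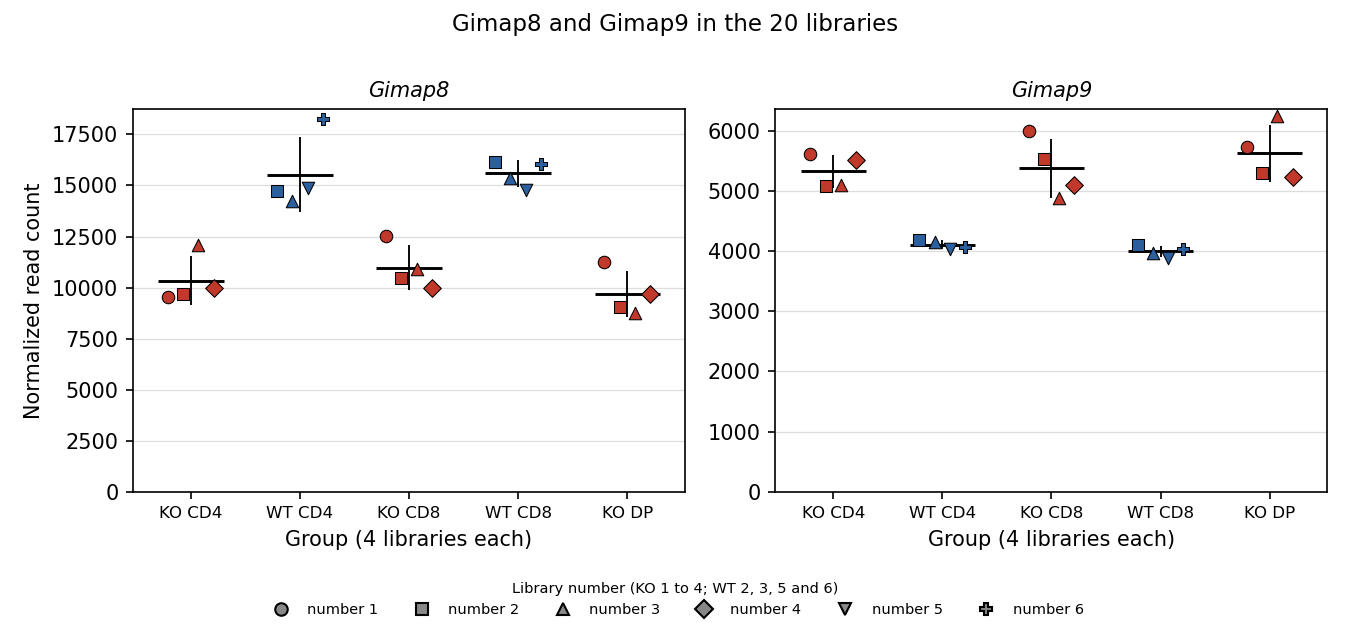
Normalized read counts of Gimap8 and Gimap9 (vertical axes, from 0) in the 4 libraries of each of 5 groups (horizontal axis), with a line for the mean, a bar for 1 SD and marker shape for the library number. Gimap8 is lower and Gimap9 higher in every KO library than in every WT library, DP cells included.

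Both directions held under each scaling tried, quantile normalization included. Both calls held in each subset with any 1 library left out, where the CD4 range was -0.67 to -0.51 for Gimap8 and 0.35 to 0.40 for Gimap9, and the CD8 range -0.58 to -0.47 and 0.37 to 0.47. Adjusted p without 1 library was at most 0.0311 for these 4 results. KO DP libraries, for which no WT counterpart was analysed here, had 11246, 9034, 8753 and 9666 counts of Gimap8 and 5730.3, 5299.6, 6241 and 5223 counts of Gimap9, on the KO side of both WT groups.

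In CD4 cells limma called 3 of the 8 Gimap genes between KO and WT (Gimap1 and Gimap9 higher, Gimap8 lower), where 18.4% of all genes tested were called. In CD8 cells it called 4 of 8 (Gimap1, Gimap6 and Gimap9 higher, Gimap8 lower), where 25.2% of all genes were. edgeR called the same 3 and 4 (18.3% and 24.7% of all genes) and DESeq2 called 4 and 5 (25.0% and 31.0%). limma called 5 in CD4 cells without KO CD4 number 2 (21.1% of all genes). By limma both shares were above those of all genes, though a list of 8 neighbours is small. Under quantile normalization only Gimap4 changed its direction, but the calls changed: in CD4 cells they were Gimap9 higher and Gimap8 lower, and for CD8 cells Gimap9 higher and Gimap3, Gimap7 and Gimap8 lower. Gimap1 had 15272 to 20629 counts in KO CD4 against 13889 to 15251 in WT CD4 libraries, with no overlap, and a log2 difference of 0.31 (SE 0.09, adjusted p 0.044, higher in 4 of 4). That call was kept without KO CD4 number 2 (adjusted p 0.0123). It was lost without KO CD4 number 1 (adjusted p 0.0801), 3 (0.0606) or 4 (0.0707) and without WT CD4 number 2 (0.103), 3 (0.11), 5 (0.0755) or 6 (0.111), with no filter on low values and under quantile normalization.

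In CD8 cells Gimap1 had 14742 to 16959 counts in KO against 12387 to 13764 in WT libraries, also without overlap. Its log2 difference of 0.31 (SE 0.07, limma adjusted p 0.0111, higher in 4 of 4) kept its call with any 1 library left out (adjusted p at most 0.0439) and lost it under quantile normalization. Gimap6 had 36171, 26523, 25090.1 and 28857 counts in KO CD8 libraries against 22327, 22450.4, 22461 and 22922 in WT CD8 libraries. KO number 1 was the highest, all 4 KO libraries lay above WT, and the log2 difference was 0.36 (SE 0.11, adjusted p 0.0368). This call was lost without KO CD8 number 4 (adjusted p 0.0696) and without WT CD8 number 2 (0.0888), 3 (0.0897), 5 (0.0891) or 6 (0.084), and under quantile normalization and the joint fit. The share of all genes that was called fell as well when a WT library was left out, to 5.08% without WT CD4 number 6 and 13.2% without WT CD8 number 6.

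The other Gimap genes were not called by limma with all libraries on the scale used. DESeq2 called Gimap5 higher in CD4 cells (adjusted p 0.0324) and Gimap7 lower in CD8 cells (0.0415), and edgeR called neither (0.0552 and 0.0733). In CD4 cells the log2 differences were 0.26 for Gimap5 (limma adjusted p 0.0644), 0.25 for Gimap6 (0.158), 0.11 for Gimap4 (0.342), -0.01 for Gimap3 (0.963) and -0.25 for Gimap7 (0.119). KO and WT libraries overlapped in all 5. Without KO CD4 number 2, which was the lowest KO library of Gimap3, Gimap5 and Gimap6, Gimap5 (adjusted p 0.0275) and Gimap6 (0.0262) passed. Without KO CD4 number 3, which was the highest KO library of Gimap7 (14510 against 10184 to 10961), Gimap7 passed with a log2 difference of -0.37 (adjusted p 0.0104). In CD8 cells the log2 differences were 0.17 for Gimap5 (0.273), 0.10 for Gimap4 (0.475), -0.28 for Gimap3 (0.11) and -0.31 for Gimap7 (0.0535). Gimap3 had 37901 counts in KO CD8 number 1 and 25489 to 26961 in numbers 2 to 4, against 34520 to 35666 in WT CD8 libraries. Without KO CD8 number 1 it was called lower (log2 difference -0.41, adjusted p 0.00183). Without KO CD8 number 3, Gimap7 was called lower (-0.42, adjusted p 0.00235) and Gimap5 higher (0.28, adjusted p 0.0277). Gimap4 changed its direction under quantile normalization in both subsets.

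**Figure D3:**
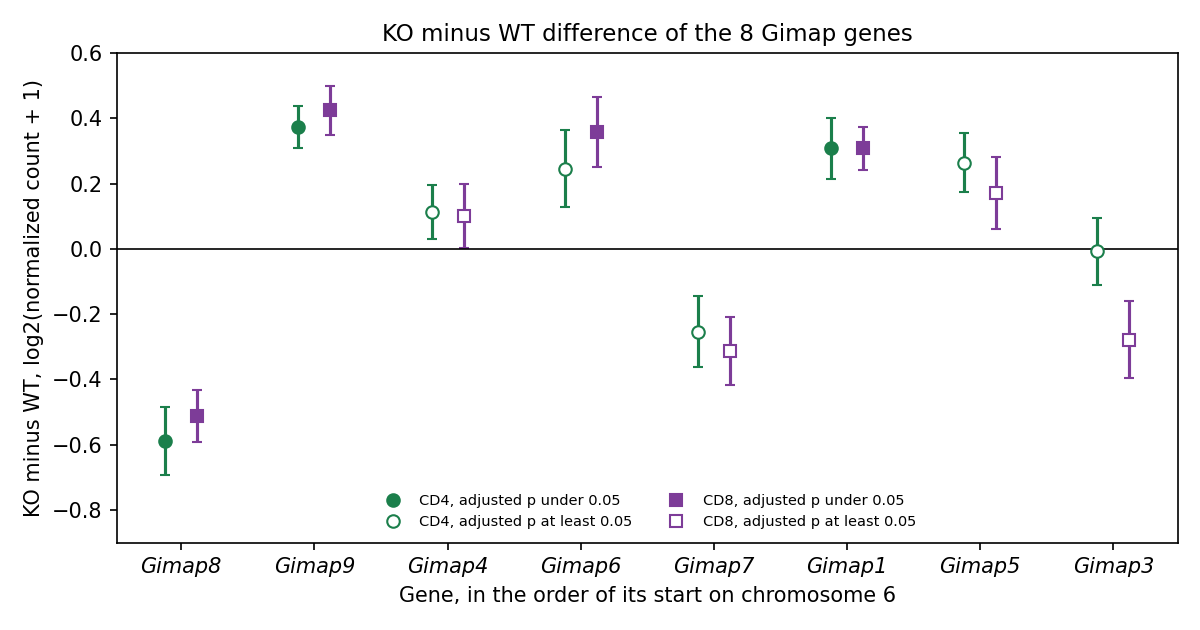
KO minus WT difference of the 8 Gimap genes (vertical axis, log2 of normalized count + 1, bars 1 SE) in the order of their start on chromosome 6 (horizontal axis), for CD4 and CD8 cells, 4 libraries per group. Gimap8 (-0.59 and -0.51) and Gimap9 (0.37 and 0.42) are called in both subsets under every scaling, while Gimap1 and Gimap6 lose their calls and Gimap4 flips its direction under quantile normalization.

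The interaction term compared the response to the deletion between CD4 and CD8 cells. limma called 0 of 8 (0 at an unadjusted p under 0.05, 0 by edgeR and 0 by DESeq2), where 0.0161% of all genes tested were called. The differences of differences ranged from -0.11 for Gimap6 to 0.27 for Gimap3 (SE 0.16, adjusted p 0.922). With the animal as a block, which pairs CD4 and CD8 libraries of the same animal, 0 of 8 were called. At that setting 1 had an unadjusted p under 0.05, and 1.39% of all genes were called. With so few genes called, the term does not show that the responses were alike.

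Between WT CD4 and WT CD8 cells, Gimap6 had 25706 to 29500 counts in CD4 against 22327 to 22922 in CD8 libraries, and Gimap7 12918 to 14641 against 16553 to 18029. Neither pair of groups overlapped. Gimap6 was higher in CD4 cells by 0.32 (SE 0.05, limma adjusted p 0.00013, 4 of 4 libraries) and Gimap7 was lower (log2 difference -0.35, SE 0.05, adjusted p 6.07e-05, 4 of 4 libraries), and both kept their call with any 1 library left out. Gimap1 was higher in CD4 cells by 0.15 (SE 0.05, adjusted p 0.0214), a call lost without WT CD4 number 5 (adjusted p 0.0691) and without WT CD8 number 3 (0.0711) or 6 (0.0631). The log2 differences of the other 5 Gimap genes lay between -0.02 and 0.08 and were not called. In KO DP number 3 Gimap7 had 27345 counts, against 12782 to 14446 in the other KO DP libraries. Against KO CD4 cells its log2 difference of 0.50 (adjusted p 0.353) became 0.25 without that library.

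By RefSeq for GRCm38.p6 the 10 members span 198.8 kb on chromosome 6. Their order is Gimap8, Gimap9, Gimap4, Gimap6, Gimap7, Gimap1, Gimap5 and Gimap3, followed after a gap of 62959 bases by Tmem176b and Tmem176a. Of 18 further genes of the table within 500 kb, 14 were tested. In CD4 cells 3 were higher in KO (Zfp775, Gpnmb and Igf2bp3), 5 were lower (Krba1, Zfp467, Sspo, Zfp862-ps and Tra2a) and 6 were not called, with a median log2 difference of -0.11 against -0.05 over all genes tested. In CD8 cells the same genes and Gm5111 were called, 4 higher and 5 lower, with a median of 0.16 against -0.04. Over all genes tested 18.4% were called in CD4 and 25.2% in CD8 cells. Changes on either side of the members thus went in both directions. Zfp775 was not called in CD4 cells without KO number 1 or 4 or without any 1 of the WT libraries. Gpnmb, which encodes a membrane glycoprotein, differed by 2.24 (SE 0.15, limma adjusted p 6.01e-05) for CD4 and 2.37 (SE 0.23, adjusted p 0.000598) for CD8 cells and kept its calls with any 1 library left out. Sspo had a mean of 12.7 counts in KO against 116 in WT CD4 libraries, a log2 difference of -3.26 (SE 0.58, limma adjusted p 0.00751). Its CD8 means were 0.561 and 21.7, and that difference ranged from -5.36 to -1.51 over the alternatives, a change of pseudocount among them. Only 5 of 8 fits with 1 library left out tested Sspo in CD8 cells. The counts depended on single libraries, as did the share of all genes called. Without WT CD4 number 6 only 1 gene was higher and 1 lower, where 5.08% of all genes were called. In CD8 cells the numbers were 2 and 1 without WT CD8 number 2 and 3 and 2 without number 3. They were 1 and 2 without number 5 and 2 and 1 without number 6. The shares of all genes were 14.2%, 13.8%, 13.8% and 13.2% at these 4 settings.

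**Figure D4:**
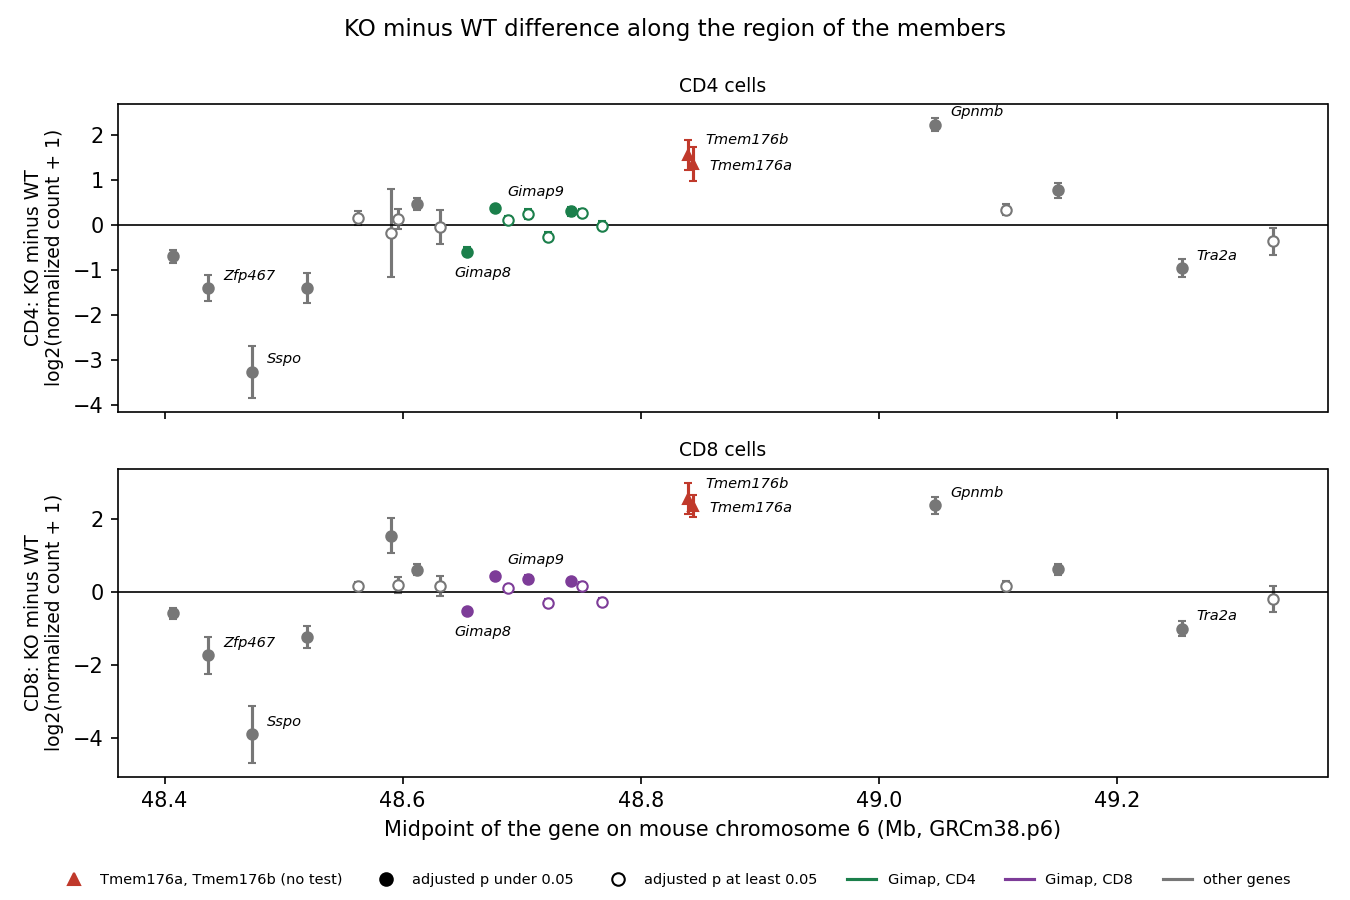
KO minus WT difference (vertical axes, log2 of normalized count + 1, bars 1 SE) of the members and the tested genes within 500 kb by position on chromosome 6 (horizontal axis, Mb), in CD4 and in CD8 cells, 4 libraries per group. Tmem176a and Tmem176b (1.37 and 1.57 in CD4 cells) have no test, and filled circles mark adjusted p under 0.05, among them Gpnmb (2.24) and Sspo (-3.26).

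Genes of the Ms4a family, relatives of the pair, were read as a list. Of 14 listed, 12 were in the table, and their summed level ranged from 67087 to 95572 in KO CD4, 82412 to 84884 in WT CD4, 68967 to 103801 in KO CD8 and 77989.8 to 88829.9 in WT CD8 libraries, most of it Ms4a4b. In CD4 cells 0 were higher, 1 was lower and 6 were not called (median log2 difference -0.17), and Ms4a6c was the lower gene (log2 difference -0.67, limma adjusted p 0.00778, a call kept with any 1 library left out). Over all genes tested 18.4% were called in CD4 cells, so 1 of 7 was near that share. In CD8 cells limma called 0 of 8, with a median of -0.21 (2 at an unadjusted p under 0.05, 0 by edgeR and 1 by DESeq2). It called 1 under quantile normalization and 2 without KO CD8 number 1. Of all genes tested it called 25.2% in CD8 cells, 23.7% under quantile normalization and 27.4% without KO CD8 number 1.

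The Th17 list had 13 genes, of which 10 were tested in each subset. In CD4 cells 0 were higher, 2 lower and 8 not called (median log2 difference -0.19), and in CD8 cells 0, 1 and 9 (median -0.36). Over all genes 18.4% and 25.2% were called, so 2 of 10 was near that share, 1 of 10 was below it, and nothing particular to the list is read from them. Ccr6 had 41.7 to 114 counts in KO CD4 against 168 to 192 in WT CD4 libraries (log2 difference -1.25, limma adjusted p 0.023) and 4.12 to 53.5 against 85.5 to 210.3 in CD8 libraries (-2.47, adjusted p 0.0333). Il21 was the other lower gene in CD4 cells (-1.35, adjusted p 0.0418). Neither gene was called in CD4 cells without KO number 1 or when any WT library was left out, and Il21 was not without KO number 2. Il21 was also not called by edgeR or DESeq2, and Ccr6 in CD4 cells was not under quantile normalization. The joint fit called 0 in CD4 cells, where it called 10.5% of all genes. Ccr6 was not called in CD8 cells when any WT library was left out. Without KO CD8 number 3 there were 1 higher (Maf) and 3 lower genes, where 33.0% of all genes were called. Il17a reached at most 19.1, Il17f at most 14.2 and Il22 at most 13.6 counts in any library. edgeR, DESeq2 and quantile normalization called Maf higher in CD8 cells. The summed level of the list ranged from 40836 to 57281 in KO CD4, 49777 to 53856 in WT CD4, 25421 to 34439 in KO CD8 and 31493 to 31843 in WT CD8 libraries, with overlap.

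Markers of other cells were read as well, beside the 18.4% of all genes called in CD4 and the 25.2% called in CD8 cells. Of 18 myeloid and dendritic markers, 16 were in the table and tested. In CD4 cells 0 were higher, 8 lower (Lyz2, Adgre1, C1qc, Cst3, Zbtb46, Flt3, Clec9a and Xcr1) and 8 not called (median log2 difference -0.97). In CD8 cells 0 were higher, 5 lower (Cst3, Zbtb46, Flt3, Clec9a and Xcr1) and 11 not called (median -0.45). Of all genes tested 9.77% were lower in CD4 and 12.5% in CD8 cells. Their summed level was 7259.8, 6142, 6693 and 5735 in KO CD4 libraries and 8987, 9723, 7449 and 8265 in WT CD4 libraries, where the KO libraries were the lower, with Cst3 the most abundant. It was 15975, 22026, 13172 and 10811 in KO CD8 and 18345, 16143, 15128 and 20588 in WT CD8 libraries, which overlapped, with Itgax, a gene that activated T cells also make, the most abundant. In KO DP libraries it was 15273, 15744, 15845 and 10519. Lyz2 was the highest of each KO group in number 3 (680, 716 and 1343 counts, against at most 95.9 in the other KO libraries). Flt3 was at 0 in 3 of 4 KO CD4 libraries. Lyz2 and Cst3 were not called in CD4 cells without KO CD4 number 1. The count of lower markers in CD4 cells was 4 without KO number 2 or 4 or WT number 5, 3 without WT number 2 and 1 without WT number 3 or 6. Of all genes, 21.1%, 16.8%, 8.28%, 8.95%, 7.89% and 5.08% were called at these settings, in that order. In CD8 cells the count was 3 when any WT library was left out, where 13.2% to 14.2% of all genes were called. In CD4 cells the count was 5 by edgeR, 9 by DESeq2, 5 with no filter on low values, 4 under quantile normalization and 3 in the joint fit. The shares of all genes there were 18.3%, 25.0%, 12.7%, 17.4% and 10.5%. In CD8 cells the count was 4 by edgeR, 4 by DESeq2 and 3 in the joint fit, beside 24.7%, 31.0% and 16.3% of all genes. The markers that were not called went in both directions, and their part in the result was not tested.

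Of 9 B cell markers 3 were tested. Cd79b had 581 to 1073 counts in KO CD4 against 40.1 to 82.6 in WT CD4 libraries (log2 difference 3.72, limma adjusted p 0.00022) and 1413 to 2245 against 147 to 245 in CD8 libraries (3.21, adjusted p 0.00013). Cd79a was also higher in CD4 cells (3.47, adjusted p 0.0049), which made 2 higher, 0 lower and 1 not called (Cd22; median log2 difference 3.47), and in CD8 cells 1, 0 and 2 (median 0.93). Without KO CD4 number 4 Cd22 was called lower, while Cd79a was called higher in CD8 cells without KO CD8 number 3 and under quantile normalization. The summed level was 1911, 1819, 1659 and 2155 in KO CD4, 1685, 1325, 1265 and 1663 in WT CD4, 2749, 2297, 1698 and 2271 in KO CD8, and 538, 514, 535 and 412 in WT CD8 libraries. In KO DP libraries it was 2372, 2329.5, 2523 and 2299, and Cd79b or Cd22 was the most abundant gene throughout. The defining markers Ms4a1 and Pax5 were at 0 or at most 7.35 counts in every library. Their part in the result was not tested.

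Of 11 markers of gamma-delta and innate-like lymphocytes 7 were in the table and 6 tested. In CD4 cells Cd163l1 was higher (log2 difference 0.53, limma adjusted p 0.0457), Kit (-1.54, adjusted p 0.00837) and Zbtb16 (-1.75, adjusted p 0.0374) were lower, and 3 were not called (median log2 difference -0.76). In CD8 cells 0 were higher, Kit was lower (-1.95, adjusted p 0.00242) and 5 were not called (median -0.67). That is 3 of 6 and 1 of 6, beside 18.4% and 25.2% of all genes. Without KO CD4 number 1, 2 or 4 or WT CD4 number 2, 3 or 5 Cd163l1 was not called. Without KO CD4 number 1 or 4 or any WT CD4 library Zbtb16 was not, and without KO CD4 number 3 Il23r was lower as well. Kit kept its calls with any 1 library left out. The joint fit called 0 of the 6 in CD4 cells, where it called 10.5% of all genes. The summed level was 2068, 2139.6, 2490.4 and 2995 in KO CD4 and 1941, 2556, 1713 and 2489 in WT CD4 libraries, which overlapped, and 1345, 663, 1237 and 2115 in KO CD8 against 1198, 1542, 1336 and 1346 in WT CD8 libraries. It was 1458, 445, 741 and 2108 in KO DP libraries. Cd163l1 was the most abundant in 19 of 20 libraries. Sox13 was at 0 in every KO CD8 and KO DP library. Their part in the result was not tested.

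Of 11 T cell markers limma called 0 in CD4 cells, with a median log2 difference of 0.06 (2 at an unadjusted p under 0.05, 1 by edgeR and 0 by DESeq2). Of all genes tested limma called 18.4% in CD4 and 25.2% in CD8 cells. Quantile normalization called 2 lower in CD4 cells, Cd3e and Cd4, where 17.4% of all genes were called. Leaving out KO CD4 number 2 gave 2 higher, Cd2 and Cd8b1, beside 21.1% of all genes. In CD8 cells Cd247 (0.36, adjusted p 0.00722), Cd4 (3.88, adjusted p 0.00263) and Cd8b1 (0.38, adjusted p 0.0208) were higher, Cd3e was lower (-0.39, adjusted p 0.0133) and 7 were not called (median 0.12). The Cd8b1 call was lost when any WT library was left out, under quantile normalization and in the joint fit. Without KO CD8 number 3 there were 3 lower genes, Cd3e, Cd3g and Cd8a, where 33.0% of all genes were called. Cd4 had 302 to 458 counts in KO CD8 and 9.89 to 79.6 in WT CD8 libraries, against 44804 to 74386 in KO CD4 libraries. The summed level of the list ranged from 210250.1 to 294508 in KO CD4, 246917 to 275014 in WT CD4, 244566 to 297226 in KO CD8 and 254033 to 273319 in WT CD8 libraries, so KO and WT overlapped.

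Across the 20 libraries the levels of Tmem176a and Tmem176b had a Pearson r of 0.975, and the deviations from group means an r of 0.870. These and the following r are descriptions, since libraries share animals and groups. By likeness to Tmem176b, Tmem176a had rank 1 of 10699 genes in level and rank 7 in deviation. Besides Tmem176a, the 5 genes most like Tmem176b in level were Cd6 (0.960), Ube2r2 (0.953), Ddit4 (0.949), Leprotl1 (0.946) and Ptp4a2 (0.937). In deviation the first 5 were Dexi (0.898), Qsox1 (0.885), Leprotl1 (0.882), Gm14295 (0.880) and Golph3 (0.879). Leprotl1 was in both lists. Tmem176b went with Gimap6 (0.864 in level and 0.656 in deviation) more than with the other Gimap genes.

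The Gimap genes did not move as a unit in level: r over their 28 pairs ranged from -0.852 to 0.846 with a median of 0.16 and was below 0 in 12 pairs. The lowest, -0.852, was that of Gimap8 and Gimap9, which was 0.066 in deviation from group means, so it reflected the differences between groups. In deviation the r of the 28 pairs ranged from -0.01 to 0.876 with a median of 0.428. The genes most like the mean of the 8 were Use1 (0.839), Hcst (0.831), Grcc10 (0.821), Alg1 (0.820) and D10Jhu81e (0.814) in level, and H2-Ke6 (0.927), Tmem198 (0.906), Izumo4 (0.903), Evi2a (0.884) and Use1 (0.883) in deviation.

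Tmem176a and Tmem176b lie on opposite strands, and the span of Tmem176a lies inside that of Tmem176b. Their gene spans overlap by 3882 bases, where the Tmem176b span includes a predicted transcript, and the exons of their curated transcripts by 0. As the strands are opposite, a read counted with its strand could not fall on both. Of the 47-base windows of their exons 0 occurred in another gene. The share was 14.5% in Gimap5, 11.9% in Gimap3 (211 windows in common with Gimap5), 10.6% in Gimap1 and 2.97% in Gimap7, where the other genes were Gm28053, Gm38409, Gm10310 and Gm49762, and 0 in Gimap4, Gimap6, Gimap8 and Gimap9. Reads from shared windows were not looked at apart, which bears on Gimap1, Gimap3, Gimap5 and Gimap7.

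Promoter windows of 300 bases, from 250 bases before to 50 bases from the RefSeq start, were read on GRCm38.p6 with CG dinucleotides in capitals. The 14 windows of the members had 1 to 8 CG dinucleotides (median 3.5), against a median of 7 and an upper quartile of 20 over 32851 windows of all genes. The window of Tmem176a on the plus strand, chr6:48841233-48841532 (RefSeq), has 2. The nearest start of Tmem176b lies 109 bases away on the minus strand, and its window, chr6:48841325-48841624 (RefSeq), shares 208 bases with the former and has 4. This start lies inside the Tmem176b span, whose outermost end, that of a predicted transcript, has no window here. The window of Gimap8 on the plus strand, chr6:48646984-48647283 (RefSeq), has 3. That of Gimap9 on the plus strand, chr6:48675885-48676184 (RefSeq), has 8. These 4 windows, 1 per gene, are shown for the pair and for the Gimap genes with the calls that changed least, and further windows of Gimap8, Tmem176a and Tmem176b are not printed.
Tmem176a: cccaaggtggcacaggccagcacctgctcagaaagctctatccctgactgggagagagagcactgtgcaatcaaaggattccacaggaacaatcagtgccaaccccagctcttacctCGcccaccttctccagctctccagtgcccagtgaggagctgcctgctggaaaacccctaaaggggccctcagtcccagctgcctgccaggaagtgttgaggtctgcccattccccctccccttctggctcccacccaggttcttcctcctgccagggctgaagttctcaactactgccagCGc
Tmem176b: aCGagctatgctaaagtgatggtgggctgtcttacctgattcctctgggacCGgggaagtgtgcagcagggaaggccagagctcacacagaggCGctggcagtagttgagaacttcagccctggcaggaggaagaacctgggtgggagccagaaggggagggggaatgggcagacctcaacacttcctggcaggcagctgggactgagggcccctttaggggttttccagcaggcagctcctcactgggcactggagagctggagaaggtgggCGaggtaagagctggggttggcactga
Gimap8: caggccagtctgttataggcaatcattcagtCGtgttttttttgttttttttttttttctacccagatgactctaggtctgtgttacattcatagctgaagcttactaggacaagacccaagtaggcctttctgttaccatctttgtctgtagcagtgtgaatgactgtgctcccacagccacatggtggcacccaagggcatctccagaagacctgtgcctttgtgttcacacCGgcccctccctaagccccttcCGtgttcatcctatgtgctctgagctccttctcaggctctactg
Gimap9: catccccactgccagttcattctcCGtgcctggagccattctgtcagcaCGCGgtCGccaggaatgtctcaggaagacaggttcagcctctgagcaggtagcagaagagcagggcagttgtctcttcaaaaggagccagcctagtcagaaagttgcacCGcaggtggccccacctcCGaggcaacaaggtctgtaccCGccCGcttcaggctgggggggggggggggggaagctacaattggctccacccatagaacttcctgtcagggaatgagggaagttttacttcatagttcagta
Of 7 motifs read on both strands, none occurred in the 5 Tmem176a and Tmem176b windows. The motif TTCNNNGAA, which occurs in 8.30% of all windows, was found in the second window of Gimap8, which is not printed, and in those of Gimap6, Gimap7 and Gimap3, TGTGGT (16.8%) in those of Gimap4, Gimap7 and Gimap1, and GGGCGG (35.7%) in those of Gimap9 and Gimap7. AGGTCA (16.3%) was found in the window of Gimap4, TGTTTAC (3.65%) in that of Gimap3, CTTTGAA (5.14%) in that of Gimap7 and CCGGAA (14.9%) in none. A match describes the sequence and says nothing of binding.

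The values are RNA levels of sorted cells on a single day after transplantation, with 4 libraries per group. In bulk samples fewer cells of a type and less RNA per cell cannot be told apart, and the share of cells other than T cells in a sort was not estimated from these values. The pair was chosen on the KO against WT contrast in these libraries, which limits what its difference can show. The subset contrasts reuse values from that choice, so the p-values of the pair there are limited as well. Cre under the Cd4 promoter deletes before the split into CD4 and CD8 cells, so KO donor cells matured without Dnmt3a, and effects of development and of transplantation cannot be told apart. DNA methylation and protein were not analysed here, and KO and WT animals carried no common block.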

How the data were processed

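The authors prepared strand-specific poly(A) libraries, sequenced 47 bp paired-end reads, aligned them to mm10 with STAR, counted reads on exons with their strand and deposited a signal of read counts normalized by DESeq2 size factors. That signal, for 17101 genes in 20 libraries, was used as deposited. Multiplication by size factors gave whole reads for 100% of the values (relative tolerance 1e-06), which were used for edgeR and DESeq2. limma with a trend was fitted to log2 of the normalized count + 1 for genes with a mean of at least 10 in the libraries compared, with Benjamini-Hochberg adjustment and a threshold of 0.05.

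Versions were R 4.3.3, limma 3.58.1, edgeR 4.0.16, DESeq2 1.42.0, pandas 2.3.3, numpy 2.4.6 and matplotlib 3.10.9. The code was tested on data simulated for KO against WT CD8 cells, with the same dispersion for all genes and libraries. Of the calls made there, 4.59% were false by limma, 4.57% by edgeR and 10.6% by DESeq2. The members and the gene lists were chosen with earlier results of these data known. Tmem176a and Tmem176b, chosen by the KO against WT contrast, were not tested in it.

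edgeR called 2265 genes between KO and WT CD4 cells, 3055 between KO and WT CD8 cells, 1 in the interaction, 1 between KO DP and KO CD8, 192 between KO DP and KO CD4, 5539 between WT CD4 and WT CD8 and 457 between KO CD4 and KO CD8 cells. limma called 2274, 3118, 2, 1, 237, 5592 and 514.

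Libraries with equal numbers were checked for pairing by the r of deviations from group means. It was 0.583 to 0.693 for KO CD4 with KO CD8, 0.376 to 0.637 for KO CD4 with KO DP, 0.427 to 0.707 for KO CD8 with KO DP and 0.224 to 0.311 for WT CD4 with WT CD8 libraries, against -0.507 to 0.171 for different numbers within a genotype. Numbers 2 and 3 of KO and WT are different animals.

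The lists were the Ms4a family, a Th17 program, T cell markers, myeloid and dendritic markers, B cell markers, and gamma-delta and innate-like markers. Gene positions, exons and promoter windows were taken from RefSeq for GRCm38.p6. Some results on single marker genes and on a list of quiescence and survival genes are not reported here.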

Additional observations from a re-analysis of the deposited data

Results flagged for a closer look

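In 4 of 50 groups of libraries checked, 1 per gene and group, 1 library stood apart from the other 3 by a gap that was large for the range, and chance marks about 1 in 20 groups. Gimap3 had a normalized count of 41386 in WT CD4 number 6, against 35559 to 36469.8 in the others. Gimap3 had 37901 in KO CD8 number 1, against 25489 to 26961. Gimap7 had 27345 in KO DP number 3, against 12782 to 14446. Gimap8 had 18252 in WT CD4 number 6, against 14237 to 14874. The cause was not tested.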

How the results depend on the processing

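Over the alternatives, the KO minus WT difference of Gimap3 in CD4 cells (-0.01) became 0.0072 by edgeR and 0.0112 by DESeq2, and ranged from -0.0518 to 0.0753 with 1 library left out. Under quantile normalization it moved further, to -0.2145 (limma adjusted p 0.12). Gimap4 went to -0.0949 in CD4 and -0.13 in CD8 cells under quantile normalization. Tmem176a in KO DP against KO CD8 cells (-0.02) became 0.0519 by edgeR and 0.0549 by DESeq2 and ranged from -0.28 to 0.31 with 1 library left out. Between WT CD4 and WT CD8 cells, Gimap5 went to -0.0114 and Gimap8 to 0.0088 under quantile normalization, and with 1 library left out Gimap4 ranged from -0.0313 to 0.0032, Gimap5 from -0.0317 to 0.0305 and Gimap8 from -0.0927 to 0.0268. Members called between KO and WT ranged from 2 to 5 in CD4 cells (3 with all libraries) and from 3 to 6 in CD8 cells (4 with all libraries). Over these settings 5.08% to 25.0% of all genes tested were called in CD4 and 13.2% to 33.0% in CD8 cells. With the library number as a block 0 members were called in both, where 0.21% and 0.719% of all genes were. Nothing is read from these 0 calls, since so few genes were called. Numbers of KO and WT are not the same animals. Under the block the differences became 0.49 for Tmem176a in CD4 and 1.43 for Tmem176b in CD8 cells. Between KO DP and KO CD4 cells 0 members were called, 2 by DESeq2, 3 in the joint fit and 2 with the animal as a block. The shares of all genes there were 1.95%, 5.98%, 12.0% and 7.06%. Between WT CD4 and WT CD8 cells 5 were called and 2 in the joint fit, where 44.5% and 12.8% of all genes were. Between KO CD4 and KO CD8 cells 0 were called, 1 with a pseudocount of 10, 2 by DESeq2, 2 in the joint fit, 4 with the animal as a block, and 0 to 2 with 1 library left out. The shares of all genes there were 4.22%, 4.545%, 7.84%, 7.26%, 18.9%, and 1.91% to 3.99%. The cause was not tested.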
